A study of Mus musculus with 6 samples.

Results

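The 10 genes of the NF-kappaB pathway described here were measured in cultured mouse hepatic stellate cells, 5 that encode the subunits (Nfkb1, Nfkb2, Rel, Rela and Relb), 2 for IkB inhibitors (Nfkbia and Nfkbie) and 3 for other regulators induced by the pathway (Tnfaip3, Tnfaip2 and Birc3). They were taken by name from the deposited table, where all 10 had a row among 13341 genes, and all 10 were among the 10540 genes tested. Stellate cells store vitamin A beside the liver sinusoids and become collagen-producing myofibroblasts on activation. Cells with the genotype label wild type were compared with cells labelled Nbr1 knock-out, 3 libraries in each of the 2 groups. Both groups grew for 4 days in DMEM with 10% fetal bovine serum under basal conditions, with no stimulus of the pathway named. How the knock-out was made, whether it is 1 clone, and the age and strain of the mice are not given in the sources used here. Nbr1 encodes a selective autophagy receptor, and the series asks how it and the related receptor p62, the product of Sqstm1, act on STING signalling in these cells.

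NF-kappaB factors are dimers of 5 related proteins. RelA, c-Rel and RelB carry a transactivation domain, while Nfkb1 and Nfkb2 encode precursors that are processed to DNA-binding subunits without one. IkB proteins hold the dimers in the cytoplasm until the IkB kinase complex marks them for degradation, and the dimers then induce their own inhibitors, so that transcripts such as Nfkbia and Tnfaip3 serve as readouts of recent activity. A second, slower branch runs through the kinase encoded by Map3k14 and the RelB partner encoded by Nfkb2. In stellate cells the pathway is known for inflammatory chemokine output and for survival of the activated cell, and p62 is known as a scaffold that binds TRAF6 and atypical protein kinase C in this pathway.

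Promoter sequences of members are shown because the results below turn on genes that the pathway itself can induce. The RefSeq promoter table, on build GRCm38.p6, held 8 of the 10 members. It gave no entry for Nfkb1 or Relb. The kappaB consensus was searched on both strands in the 250 bases before each start, with overlapping matches allowed. It was present for 6 of the 8 members at 1 or more of their starts, in 8 of 11 windows, and in 7.25% of all 32851 such windows. Those 6 were Nfkb2, Rel, Nfkbia, Nfkbie, Tnfaip3 and Tnfaip2. A looser form, GGG and CC with any 5 bases between them, was found for all 8 members and in 45.8% of all windows. The windows of 3 genes with a match follow, each 5′ to 3′ on the strand of its gene, with the matches in capitals. They lie at chr12:55492648-55492897 (minus strand) for Nfkbia, chr17:45555450-45555699 (plus strand) for Nfkbie and chr11:23770970-23771219 (minus strand) for Rel.
Nfkbia: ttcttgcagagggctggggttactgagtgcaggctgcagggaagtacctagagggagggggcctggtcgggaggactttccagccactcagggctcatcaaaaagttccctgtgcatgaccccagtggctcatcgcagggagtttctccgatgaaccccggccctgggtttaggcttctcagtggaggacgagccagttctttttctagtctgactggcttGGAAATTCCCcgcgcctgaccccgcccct
Nfkbie: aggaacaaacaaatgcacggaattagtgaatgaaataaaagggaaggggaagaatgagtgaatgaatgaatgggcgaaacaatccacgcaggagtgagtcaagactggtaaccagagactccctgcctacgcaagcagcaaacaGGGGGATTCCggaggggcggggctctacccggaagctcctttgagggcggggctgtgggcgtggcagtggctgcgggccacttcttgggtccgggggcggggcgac
Rel: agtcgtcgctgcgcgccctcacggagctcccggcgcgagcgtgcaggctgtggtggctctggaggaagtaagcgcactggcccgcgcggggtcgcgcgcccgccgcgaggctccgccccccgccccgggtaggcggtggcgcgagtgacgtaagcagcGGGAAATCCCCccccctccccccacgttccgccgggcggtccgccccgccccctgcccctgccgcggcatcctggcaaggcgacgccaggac
The Nfkbia match ends 19 bases before the start and the Nfkbie match 96 bases before it. In Rel, 2 matches overlap, and the nearer ends 81 bases before the start. A match describes the letters and not a bound site.

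None of the 10 genes differed between the labelled groups past the threshold (limma, 0 of 10 at an adjusted p under 0.05, against 6.92% of all 10540 tested genes, 4.67% higher and 2.25% lower in the knock-out). edgeR and DESeq2 on the recovered reads also called 0 of 10, against 7.27% and 9.02% of all genes. One member, Relb, had an unadjusted p under 0.05, against 22.6% of all tested genes. The log2 change, knock-out minus wild type on the log2(value + 1) scale, was negative for 9 of the 10 members and for 51.1% of all tested genes. Its median was -0.46 over the members and -0.01 over all tested genes. Values are normalized counts, that is, reads from transcript 3' ends divided by a factor of each library, and they do not grow with transcript length. Each library held between 1508518 and 2383879 recovered reads. The replicates are called biological in the series design, and no label ties them to separate animals, so the p-values measure only the spread between these samples. In RNA from a culture, fewer cells of a type and less RNA per cell cannot be told apart.

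The libraries fell into 2 sets that cross the genotype labels, found by clustering the libraries on what remained after the mean of each group was subtracted. Set 1 consisted of replicate 1 of the wild type with replicates 1 and 3 of the knock-out. Set 2 consisted of replicates 2 and 3 of the wild type with replicate 2 of the knock-out. No label names a batch, and the sets were drawn from these data, so differences between them are given as a description. A model term for the sets takes out spread that the clustering itself picked. The p-values of that fit therefore tend to be too small. A pass there is given to show dependence on the model and not as support for a difference. The same holds for passes without wild-type library 1, the only wild-type library of set 1. In that fit the wild type is set 2 only, while the knock-out is mostly set 1. Differences between the labels and between the sets cannot be fully told apart there. For the targeted gene Nbr1 the wild-type libraries gave 204.1, 278.0 and 288.7 normalized counts and the knock-out libraries 203.7, 188.2 and 175.6 (limma adjusted p = 0.22, or 0.0216 without wild-type library 1). A 3' end read cannot show a deletion elsewhere in the gene. The genotype is therefore taken from the labels, and these values do not establish it. Of 12 stellate cell markers 8 were measured, and their summed level was 5543.4 to 7252.6 in the wild-type and 13012.3 to 16621.0 in the knock-out libraries. Most of this sum came from Col1a1, Col1a2 and Vim, which are not particular to stellate cells. Vim overlapped between the groups (2029.2 to 2918.3 and 2817.0 to 4094.4). Hand2, Lhx2, Pdgfrb, Acta2, Col1a1 and Col1a2 were higher in each knock-out library. Gfap reached no more than 3.6, and Lrat, Des, Rgs5 and Reln had no row. Of 12 macrophage markers only Cd68 and Csf1r had a row, with a summed level of 6.4 to 14.7 in the wild type and 6.9 to 14.2 in the Nbr1 knock-out. Of 9 endothelial markers only Kdr and Egfl7 had a row, summing to 35.3 to 132.1 and 35.2 to 70.0. Hepatocyte markers (4 of 8 measured) summed to 33.6 to 48.1 and 13.8 to 43.9, with overlap. Mesothelial markers (7 of 8 measured) summed to 1807.8 to 2112.8 in the wild type and 1307.1 to 1580.5 in the Nbr1 knock-out, without overlap. The single genes did not all follow the sum. Msln was higher in each knock-out library (9.2 to 17.3 and 19.0 to 26.3), and Lrrn4 and Upk1b overlapped. Upk3b, Wt1, Gpm6a and Krt8 were lower in each knock-out library. Cholangiocyte markers (5 of 6) summed to 141.9 to 162.8 and 602.5 to 666.9, and did not move one way. Sox9 was listed at 10.7 to 21.8 and 467.1 to 496.0, and Cdh1 was also higher in each knock-out library. Krt19 (47.2 to 50.7 and 31.8 to 37.1) and Spp1 (69.7 to 78.7 and 27.5 to 33.2) were lower in each knock-out library. The part of these differences in the results below was not tested.

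Rela and Nfkb2 were the most abundant subunit transcripts. Rela, which encodes the p65 subunit of the canonical dimer, had 356.2, 216.7 and 223.4 normalized counts in the wild type, listed as replicates 1 to 3, and 339.5, 231.2 and 334.6 in the Nbr1 knock-out. The groups overlapped, and the 3 high values were those of set 1. The group means were 265.4 ± 78.7 and 301.8 ± 61.2 (SD, n = 3 each), with a log2 change of 0.20 (SE 0.25, 95% interval -0.40 to 0.80, limma adjusted p = 0.709). The change was -0.08 within set 1 and 0.07 within set 2, each with 1 library in a group and no test.

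Nfkb2, whose product p100 is processed to p52 and pairs with RelB, had 324.2, 249.4 and 181.6 normalized counts in the wild type and 220.9, 165.0 and 198.2 in the Nbr1 knock-out. The groups overlapped, with wild-type library 1 the highest of the 6. The log2 change was -0.34 (SE 0.24, 95% interval -0.91 to 0.23, limma adjusted p = 0.474). With a term for the library sets it was -0.50 and passed (limma adjusted p = 0.0393), in a fit that called 26.5% of all tested genes. The sets came from these data, so this pass is not support for a difference. The 3' end of Nfkb2 overlaps Psd on the other strand in the GENCODE M21 annotation. Psd was listed at 7.3 to 18.7, and reads of the pair cannot be told apart if strand was not used.

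Relb, the transactivating partner in the slower branch, had the smallest p of the 10. It stood at 53.4, 57.1 and 63.6 normalized counts in the wild type and 34.4, 44.7 and 22.5 in the Nbr1 knock-out. All 3 knock-out values lay below the lowest wild-type value. The means were 58.0 ± 5.2 and 33.9 ± 11.1 (SD, n = 3 each), 1.71 times higher in the wild type, with a log2 change of -0.81 (SE 0.28, 95% interval -1.48 to -0.14). It did not pass after adjustment (limma adjusted p = 0.15), and the limma adjusted p and those of edgeR and DESeq2 ranged from 0.0609 to 0.379 over 15 alternatives. The log2 change was -0.91 within set 1 and -0.42 within set 2. Relb rested on 178 reads in the wild type and 109 in the Nbr1 knock-out. Groups without overlap, as in Relb and Tnfaip2, were found for 2 of the 10 members and 30.1% of all tested genes, or 13.6% counting only those lower in the Nbr1 knock-out.

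Nfkb1, which encodes the p105 precursor of p50, was the subunit that varied most. It had 25.3, 116.7 and 98.1 normalized counts in the wild type and 46.2, 69.6 and 26.1 in the Nbr1 knock-out. The low values were the 3 libraries of set 1, so the 2 groups overlapped. The log2 change of -0.59 (SE 0.63) had a 95% interval of -2.08 to 0.90 (limma adjusted p = 0.653), and it was 0.44 within set 1 and -0.61 within set 2. Rel, which encodes the c-Rel subunit, had 54.7, 52.9 and 54.5 in the wild type and 53.4, 45.6 and 40.3 in the Nbr1 knock-out. Its wild-type libraries agreed closely, and the lowest knock-out value was that of library 3. The log2 change was -0.22 (SE 0.19, 95% interval -0.68 to 0.23, limma adjusted p = 0.564), and -0.23 within each set.

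**Figure D1:**
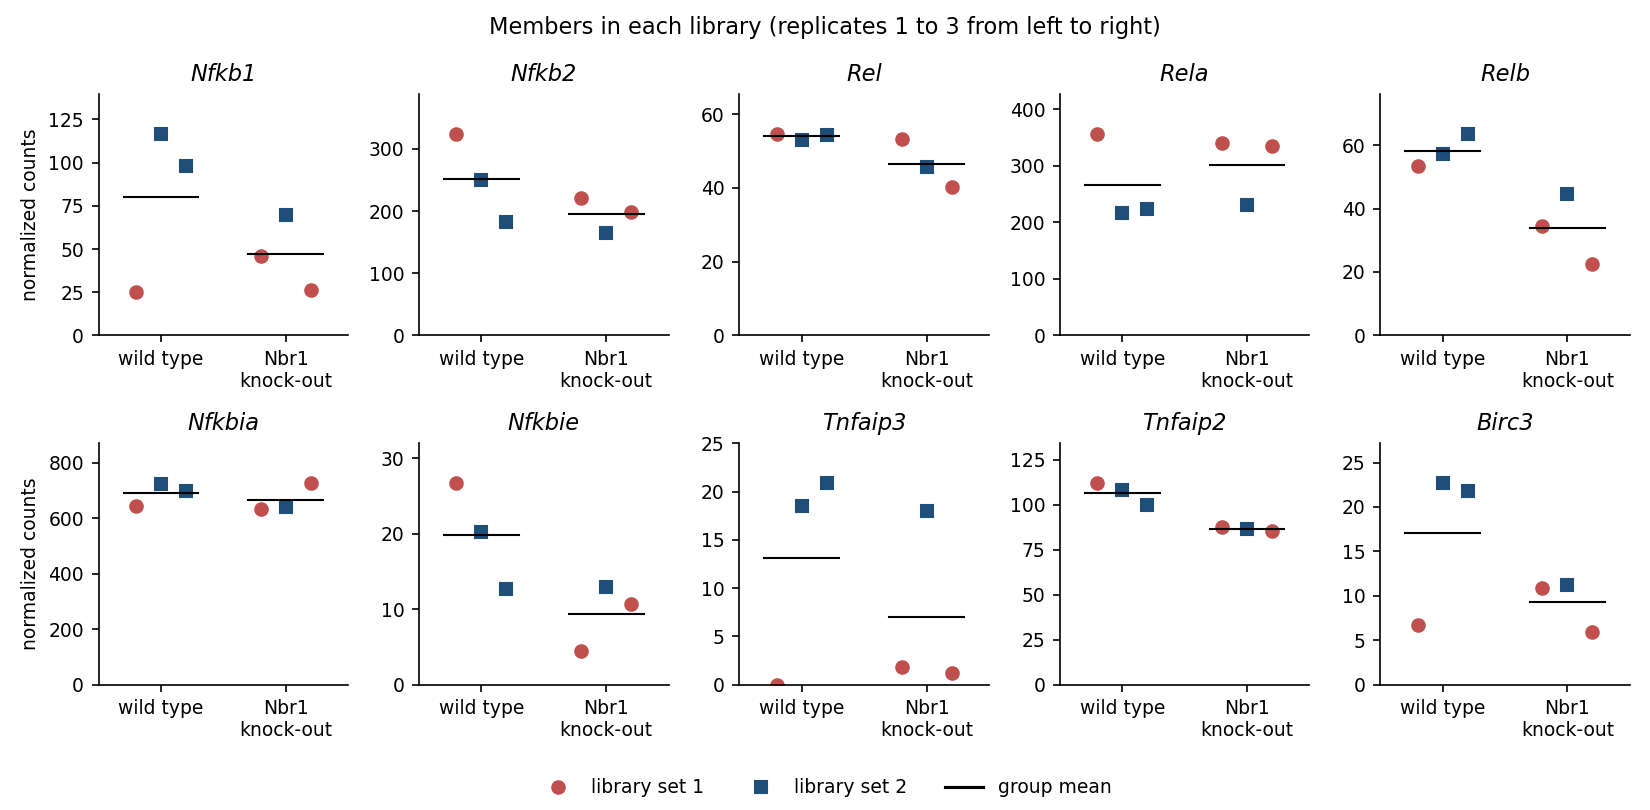
Normalized counts of the 10 genes in each library, 1 panel per gene with its own linear axis from 0. Circles are the libraries of set 1, squares those of set 2, and lines the group means. In Relb and Tnfaip2 the 2 genotype groups do not overlap, and in Nfkb1, Rela, Tnfaip3 and Birc3 the 2 library sets do not.

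The makeup of the subunit pool was described by the share of each gene in the summed normalized counts of the 5 subunits. The sum was 813.8, 692.8 and 621.0 in the wild type and 694.3, 556.1 and 621.8 in the Nbr1 knock-out, and the groups overlapped. Rela made up 43.8, 31.3 and 36.0% in the wild type and 48.9, 41.6 and 53.8% in the Nbr1 knock-out. Nfkb2 made up 29.2 to 39.8% in the wild type and 29.7 to 31.9% in the Nbr1 knock-out. Together these 2 genes were the leading pair in every library. Nfkb1 ranged most, from 3.1% in wild-type library 1 to 16.8% in wild-type library 2. The ratio of Nfkb2 to Nfkb1 was 12.8 in wild-type library 1 against 2.14 and 1.85 in the other wild-type libraries, and 4.78, 2.37 and 7.59 in the Nbr1 knock-out. Relb made up 6.6, 8.2 and 10.2% in the wild type and 5.0, 8.0 and 3.6% in the Nbr1 knock-out. Its ratio to Rela was 0.15, 0.264 and 0.285 in the wild type and 0.101, 0.193 and 0.0674 in the Nbr1 knock-out, with overlap through wild-type library 1 and knock-out library 2. These shares were not tested.

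**Figure D2:**
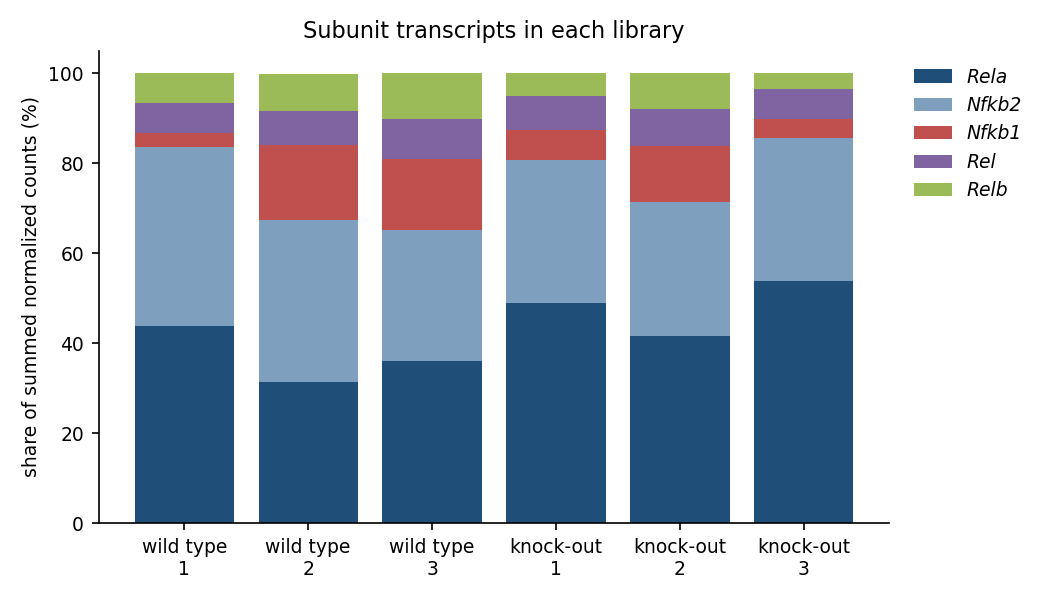
Share of each subunit gene in the summed normalized counts of the 5 subunits (y axis, percent) for each of the 6 libraries (x axis). Rela and Nfkb2 form the larger part of every bar, and the Nfkb1 segment is thinnest in wild-type library 1 (3.1%) and knock-out library 3 (4.2%).

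Nfkbia, which encodes IkB-alpha, the main inhibitor of canonical dimers, was the most abundant of the 10 genes and had the smallest log2 change. It had 644.4, 725.6 and 700.0 normalized counts in the wild type and 632.7, 641.2 and 727.4 in the Nbr1 knock-out. The ranges of the groups overlapped almost fully. The means were 690.0 ± 41.5 and 667.1 ± 52.4 (SD, n = 3 each), and the log2 change was -0.05 (SE 0.12, limma adjusted p = 0.863). Its 95% interval of -0.34 to 0.24 spans a ratio of knock-out to wild type from 0.788 to 1.18. This was the narrowest interval among the members, resting on 2118 and 2058 reads, and Nfkbia did not follow the library sets either (mean 668.2 in set 1 and 688.9 in set 2). Nfkbia transcripts per summed subunit transcript came to 0.792, 1.05 and 1.13 in the wild type and 0.911, 1.15 and 1.17 in the Nbr1 knock-out.

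Nfkbie, which encodes IkB-epsilon, was a low transcript with the most negative log2 change of the 10. It had 26.7, 20.2 and 12.7 normalized counts in the wild type and 4.5, 12.9 and 10.7 in the Nbr1 knock-out, that is 20, 24 and 14 reads against 5, 15 and 9. The groups overlapped through wild-type library 3 and knock-out library 2, which differed by 1 read in count. The log2 change was -1.05 (SE 0.46, 95% interval -2.14 to 0.03) and did not pass (limma adjusted p = 0.234). It was -1.78 within set 1 and -0.29 within set 2. Without knock-out library 1 the change was -0.65 (limma adjusted p = 0.569).

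Tnfaip2, an NF-kappaB-induced gene with a role in cell protrusions, separated the groups by a small margin. It had 112.1, 108.3 and 99.9 normalized counts in the wild type and 87.8, 86.8 and 85.4 in the Nbr1 knock-out. Every knock-out value was below every wild-type value, and the knock-out libraries differed little from each other. The means were 106.8 ± 6.2 and 86.7 ± 1.2 (SD, n = 3 each), 1.23 times higher in the wild type. The log2 change of -0.30 (SE 0.15, 95% interval -0.65 to 0.06) did not pass (limma adjusted p = 0.308), and was -0.37 within set 1 and -0.26 within set 2. A GENCODE M21 antisense model, Gm40578, overlaps its 3' end, so its reads are uncertain if strand was not used.

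Tnfaip3 encodes the ubiquitin-editing inhibitor A20, and Birc3 encodes a ubiquitin ligase at the TNF receptor. The library sets separated both genes without overlap and the labels did not, with a narrow margin for Birc3 (10.9 against 11.2 normalized counts). Tnfaip3 had 0, 22 and 23 reads in the wild type and 2, 21 and 1 in the Nbr1 knock-out, or 0, 18.5, 20.9, 1.8, 18.0 and 1.2 normalized counts. The count of 0 in wild-type library 1 allows up to 3 reads, or 4.0 normalized counts, by counting error alone. Set 1 held 3 reads in all and set 2 held 66, a ratio per library scale of 17.2 (95% exact interval 5.62 to 85.4, counting error only). The sets were drawn from these data, so the interval does not test the split. Between the labels the log2 change was -0.62 (SE 1.38, limma adjusted p = 0.844), and its 95% interval of -3.91 to 2.66 leaves a large change in either direction undetectable. It was 1.31 within set 1, on 3 reads, and -0.12 within set 2.

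Birc3 had 6.7, 22.7 and 21.8 normalized counts in the wild type and 10.9, 11.2 and 5.9 in the Nbr1 knock-out. Wild-type library 1 lay among the knock-out values, and the other wild-type libraries lay above all of them. The library sets were kept apart only by knock-out library 1 (10.9, 12 reads) against knock-out library 2 (11.2, 13 reads). The log2 change was -0.68 (SE 0.52, 95% interval -1.92 to 0.55, limma adjusted p = 0.511). Without wild-type library 1 it was -1.22 and passed (limma adjusted p = 0.0485). That fit called 21.1% of all tested genes, and Birc3 was then 1 of 10 members called. As its wild-type libraries are all of set 2, the set difference enters it, and this pass is not support for a difference. The change was 0.24 within set 1 and -0.93 within set 2, on 22 and 64 reads.

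**Figure D3:**
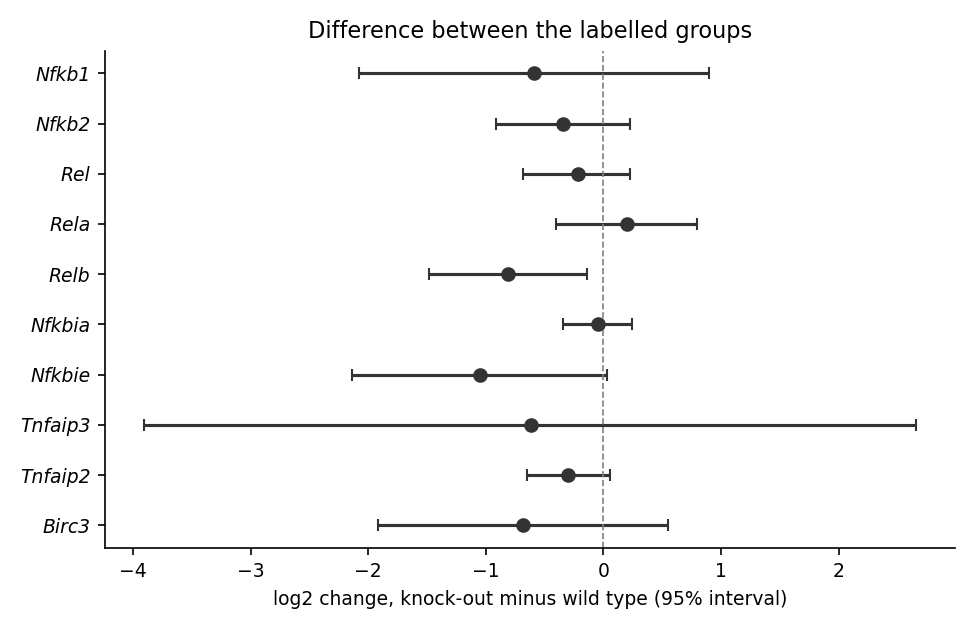
Log2 change between the labels (x axis, knock-out minus wild type, limma) for each gene, with bars for the 95% interval, not adjusted for the number of genes. The points of 9 of the 10 genes are below 0. Relb is the gene whose interval leaves out 0 (-1.48 to -0.14), and Tnfaip3 has the widest interval.

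In order of mean level in the wild type, Nfkbia (690.0) was followed by Rela (265.4), Nfkb2 (251.7), Tnfaip2 (106.8), Nfkb1 (80.0), Relb (58.0), Rel (54.0), Nfkbie (19.8), Birc3 (17.0) and Tnfaip3 (13.1). These are 3' end counts, for which no length correction applies. The step from Nfkbia to Rela, from Nfkb2 to Tnfaip2 and from Rel to Nfkbie exceeded the range over libraries, and the other neighbours overlapped. In the knock-out label Rel (46.4) and Relb (33.9) changed places, with overlapping ranges. The 3 genes at the low end, Nfkbie, Birc3 and Tnfaip3, overlapped in both groups.

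The library sets separated 4 of the 10 members without overlap (Nfkb1, Rela, Tnfaip3 and Birc3), the same share as the 40.0% of all tested genes. Mean levels in set 2 against set 1 were 94.8 and 32.5 for Nfkb1, 18.5 and 7.8 for Birc3, and 223.7 and 343.4 for Rela, so the members did not move one way. The median size of the set difference was 0.50 on the log2 scale over the members and 0.40 over all tested genes. That difference was not adjusted for genotype. Knock-out libraries form the larger part of set 1 and the smaller part of set 2, so a difference between the labels also enters it. The GC content of the last 500 bases was taken from the longest coding transcript of each gene in GENCODE M21, with a value for 96.5% of tested genes. It was 33.6% for Nfkb1, 36.8% for Tnfaip3 and 45.6% for Birc3, which were lower in set 1. It was 53.6% for Rela and 56.0% for Nfkb2, the 2 members whose mean was higher in set 1. Rel (33.8%) and Nfkbia (37.2%), also of low GC content, hardly differed between the sets (log2 difference -0.05 and -0.04). Relb, at 54.2%, was lower in set 1 (-0.64), and Nfkbie (47.2%) and Tnfaip2 (52.8%) were at -0.39 and -0.05. Over the 10 members, which share the 6 libraries, Pearson's r of GC content with the set difference was 0.50, and over all tested genes with a value it was 0.30. With all genes in 4 bins of GC content, the median set difference was -0.26 in the lowest bin and 0.34 in the highest, and the median change between the labels was -0.13 and 0.09. The part of GC content in the members' values was not tested.

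**Figure D4:**
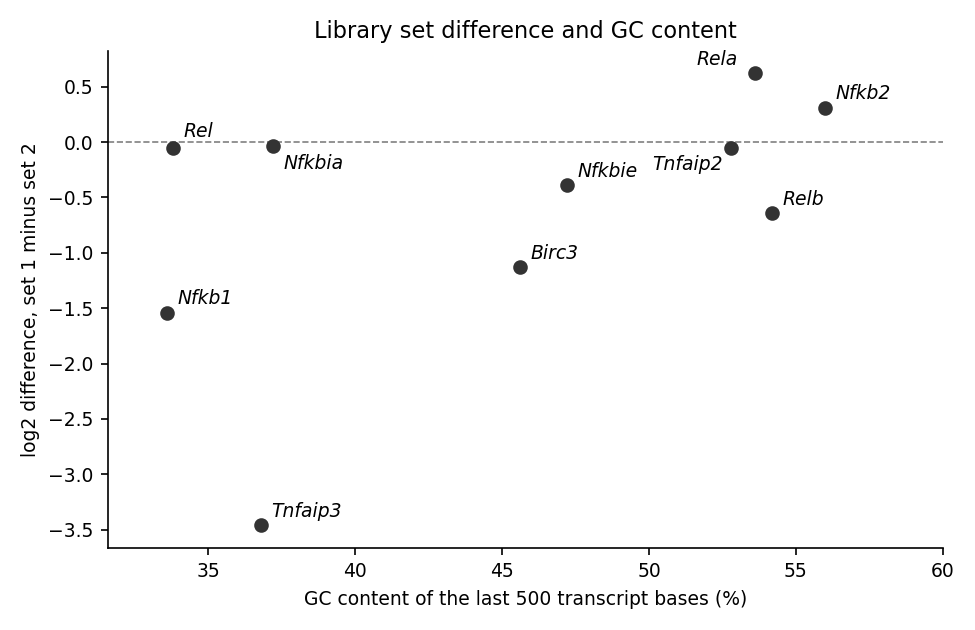
Difference between the library sets (y axis, log2, set 1 minus set 2) against the GC content of the last 500 transcript bases (x axis, percent) for the 10 genes. The set difference is not adjusted for genotype. Nfkb1, Tnfaip3 and Birc3 lie below -1, Rela and Nfkb2 above 0, Rel and Nfkbia near 0 at low GC content, and Relb at -0.64 at high GC content.

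For the 3 members with the smallest p, the genes of most similar pattern were taken by Pearson's r of log2(value + 1) over the 6 libraries. For Relb they included Zfp983 (r = 0.994) and Smg1 (0.990). Smg1 had 97.4, 106.7 and 111.7 normalized counts in the wild type and 76.0, 94.5 and 64.1 in the Nbr1 knock-out, with the same order of libraries as Relb. For Nfkbie they were Apex2 (0.984), the mesothelial marker Lrrn4 (0.970) and the non-coding RNA Kantr (0.964). For Tnfaip2 they were Ninl (0.996), Snrpd2 (0.996) and the cytokine gene Il18 (0.993). Among the members, Nfkb1 and Birc3 (r = 0.97) and Nfkb1 and Tnfaip3 (0.94) went together over the libraries, and Rela and Tnfaip3 went in opposite directions (-0.98). These values describe 6 libraries that share the set split.

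Outside the 10 genes, 104 further genes of the pathway were listed by role, of which 78 were tested. In limma 4 rose and 2 fell in the Nbr1 knock-out, 7.69% of the 78 against 6.92% of all tested genes. Cxcl5, among those that rose, entered the test only through its knock-out values. The median log2 change of the 78 was 0.08, against -0.01 over all tested genes. This count was 14 without wild-type library 1, or 17.9% of the 78 in a fit that called 21.1% of all tested genes. It was 3 and 4 without wild-type libraries 2 and 3 (all genes 3.11% and 3.03%), and 1, 2 and 3 without knock-out libraries 1 to 3 (all genes 1.9%, 3.21% and 2.19%).

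Of 12 ligand genes only 4 were measured, and 2 of them fell. Il33, which encodes an alarmin of the interleukin-1 family, had 40.0, 29.4 and 42.7 normalized counts in the wild type and 10.9, 10.3 and 11.9 in the Nbr1 knock-out. It was 3.39 times lower (log2 change -1.66, SE 0.25, limma adjusted p = 0.0121). Il18, of the same family, had 89.4, 78.9 and 61.7 against 30.8, 27.5 and 28.5, 2.65 times lower (log2 change -1.36, SE 0.21, limma adjusted p = 0.013). Both groups of values lay far apart in both genes. Il33 no longer passed when 1 of the knock-out libraries or wild-type library 3 was left out, nor did Il18 when 1 of the knock-out libraries or wild-type library 2 was (limma adjusted p up to 0.0764 in both genes). Tnfsf12, which encodes TWEAK, a ligand of the slower branch, stood at 20.0, 43.7 and 48.1 against 70.6, 79.1 and 52.2 and did not pass (limma adjusted p = 0.205, or 0.00702 with the library set term). Tnf, Lta, Ltb, Il1a and Il1b were among the ligand genes without a row.

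Of 9 receptor genes tested 0 passed in limma, edgeR or DESeq2. In limma 3 had an unadjusted p under 0.05, against 22.6% of all tested genes. Those 3 had higher values in every knock-out library than in any wild-type library, a pattern found for 16.5% of all tested genes. Tlr4, the lipopolysaccharide receptor gene, had 49.4, 66.3 and 65.4 normalized counts in the wild type and 108.6, 114.3 and 87.8 in the Nbr1 knock-out (log2 change 0.77, SE 0.20, limma adjusted p = 0.0758). Il1rap, which encodes the shared chain of interleukin-1 family receptors, had 8.0, 16.8 and 22.7 against 32.6, 48.1 and 27.3 (limma adjusted p = 0.15). Tnfrsf12a, the receptor gene for TWEAK, had 17.3, 26.9 and 20.9 against 32.6, 40.4 and 32.0 (limma adjusted p = 0.173). All 3 passed once the library sets were a term of the model (limma adjusted p = 0.00452, 0.00335 and 0.0288), in the fit that called 26.5% of all tested genes. As the sets came from these data, those passes are not support for a difference. Tlr4 also passed without wild-type library 1 (limma adjusted p = 0.0452).

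Of 16 adaptor genes tested only the scaffold gene Sqstm1 passed. It stood at 24.0, 10.9 and 12.7 normalized counts in the wild type and 817.4, 644.6 and 859.1 in the Nbr1 knock-out. The mean was 48.7-fold higher (log2 change 5.59, SE 0.30, limma adjusted p = 0.000337), on 45 wild-type and 2377 knock-out reads. Nbr1, the gene named by the label, changed far less (log2 change -0.43, limma adjusted p = 0.22). Why the wild-type libraries held so few Sqstm1 reads was not tested. Myd88, the adaptor gene of Toll-like and interleukin-1 receptors, had 33.4, 55.4 and 51.8 against 105.0, 88.5 and 77.1. Its groups did not overlap, but it did not pass (log2 change 0.95, SE 0.25, limma adjusted p = 0.0775). It passed in DESeq2 (adjusted p = 0.0391) and in limma without wild-type library 1 (adjusted p = 0.0379) or with the library set term (adjusted p = 0.00713). Irak1, the kinase gene next in that chain, had 247.8 ± 30.3 and 312.0 ± 2.1 (SD, n = 3 each; limma adjusted p = 0.216, or 0.035 without wild-type library 1). Sting1 had 164.1, 98.3 and 84.4 against 182.9, 130.6 and 188.7, with overlap (limma adjusted p = 0.308, or 0.027 without wild-type library 1).

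Of 15 genes of the kinase and ubiquitin ligase complexes 0 passed in limma, edgeR or DESeq2. Only Map3k7 had an unadjusted limma p under 0.05, against 22.6% of all tested genes. Map3k7, which encodes the TAK1 kinase upstream of the IkB kinases, had 134.7, 140.2 and 165.2 normalized counts in the wild type and 191.0, 185.6 and 200.5 in the Nbr1 knock-out (limma adjusted p = 0.176, or 0.0484 with the library set term). The library sets separated 10 of the 15 without overlap, against 40.0% of all tested genes. Of 14 genes tested in the list of other inhibitors, which also holds atypical IkB family members, Nfkbiz rose and 0 fell. Nfkbiz was listed by family, and whether its product inhibits the pathway in these cells was not tested. Nfkbiz, which encodes the atypical nuclear protein IkB-zeta, had 18.7, 19.3 and 24.5 normalized counts in the wild type and 67.0, 67.0 and 49.8 in the Nbr1 knock-out. The groups were well separated, and the mean was 2.94-fold higher (log2 change 1.51, SE 0.23, limma adjusted p = 0.0125). It no longer passed when wild-type library 2, knock-out library 1 or knock-out library 2 was left out (limma adjusted p from 0.0582 to 0.0923). Tax1bp1, an autophagy receptor and partner of A20, had 781.8, 749.1 and 750.9 against 576.6, 560.4 and 519.7 (log2 change -0.46, SE 0.11, limma adjusted p = 0.0619), and passed in DESeq2 (adjusted p = 0.0263) and in limma without wild-type library 1 (adjusted p = 0.0268) or with the library set term (adjusted p = 0.00786). The deubiquitinase gene Cyld (163.2 ± 15.2 and 232.3 ± 29.3) and the ubiquitin ligase gene Itch (45.3 ± 7.0 and 25.5 ± 7.9; SD, n = 3 each) did not pass (limma adjusted p = 0.123 and 0.157), and with the library set term Cyld did (limma adjusted p = 0.0361).

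Of 20 target genes tested, Cxcl5 and Cxcl12 rose and 0 fell. The neutrophil chemokine gene Cxcl5 had 1.3, 0.8 and 0.9 normalized counts in the wild type, 1 read in each library. In the Nbr1 knock-out it had 11.8, 10.3 and 11.9, on 13, 12 and 10 reads (limma adjusted p = 0.00789). Only its knock-out libraries reached the 10 normalized counts needed for testing. Cxcl5 was thus tested because it was high in that group, so its call is not support for a rise of target genes. It did not pass when knock-out library 1 was left out (limma adjusted p = 0.0607). Cxcl12, the CXCR4 ligand gene, had 1486.2, 1527.6 and 1558.9 against 2462.2, 2684.9 and 2389.8, 1.65-fold higher (limma adjusted p = 0.0118). It no longer passed when any 1 library but wild-type library 1 was left out (limma adjusted p up to 0.0857), nor with a replicate block (adjusted p = 0.052). Ccl5, a chemokine gene, had 30.7, 24.4 and 34.5 against 16.3, 18.0 and 19.0, and did not pass (limma adjusted p = 0.143). Ccl2 and Vcam1, named here after their values were seen, are classic targets. Ccl2 followed the library sets, with a mean of 6.3 in set 1 and 61.3 in set 2, and had a log2 change of -0.81 between the labels (SE 1.26, limma adjusted p = 0.772). Vcam1 had 1254.6 ± 77.9 and 1288.1 ± 99.8 (SD, n = 3 each), with a 95% interval of the log2 change from -0.25 to 0.32. The library sets separated 11 of the 20 target genes, against 40.0% of all tested genes. Icam1, Cxcl2, Ccl20 and Mmp9 were among the listed target genes without a row.

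**Figure D5:**
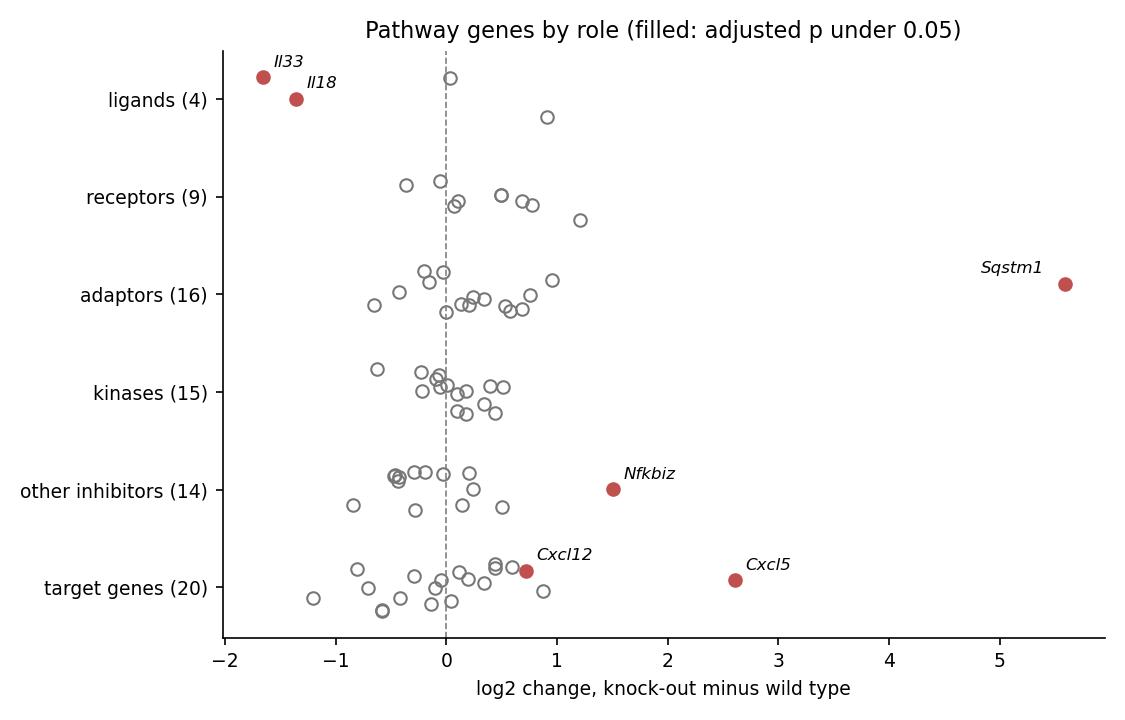
Log2 change (x axis, knock-out minus wild type, limma) of the 78 tested pathway genes in 6 role lists (y axis, number tested in brackets; vertical scatter within a list carries no value). Filled points passed at an adjusted p under 0.05. Sqstm1 lies apart at 5.59, Il33 and Il18 are the 2 genes that fell, and the receptor and kinase lists have no filled point.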

How the data were processed

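Messenger RNA was read from 3' ends (QuantSeq forward kit, 200 ng of RNA, single-end reads of 75 nucleotides), per the labels' protocols. DESeq2 (no version) and build GRCm39 appear in the submitters' processing notes. Aligner, annotation, and use of strand and molecular identifiers were not given in the sources used here. As deposited by the authors, the values are a signal of reads scaled by 1 factor per library. In every library 100% of values were whole multiples of 1 read (tolerance 0.01), so reads were recovered. The least sum over the 6 libraries was 9 reads. Depth was 1508518 to 2383879 reads.

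The 10540 genes that reached 10 in 3 or more libraries entered a two-sided limma 3.58.1 test in R 4.3.3 on log2(value + 1), with a variance trend and no term but the group. P-values were adjusted over all of them by Benjamini-Hochberg. The fitting code was run on simulated data that held no library sets. That run checks the code and does not measure how the fits perform on these libraries. Alternatives were TMM factors, pseudocounts of 0.5 and 5, all genes, genes with a mean of 50 or more, edgeR 4.0.16 and DESeq2 1.42.0 on recovered reads, no trend, a replicate block, a term for library sets, and each library left out in turn with the tested genes kept. Differences within each library set were added after seeing the data. Members, lists and alternatives were chosen with earlier results of these data known. All members were named, and from each pathway list the genes past the threshold and up to 3 others of smallest p, with Nbr1, Sqstm1 and Sting1. One gene of similar pattern to a member is not reported here. GC content and antisense overlap came from GENCODE M21 (GRCm38), and promoters from RefSeq GRCm38.p6, which is not the build of the counts.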

Additional observations from a re-analysis of the deposited data

How the results depend on the processing

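The count of members called was 0 in limma and in 14 of 16 alternatives. It was 1 with a term for the library sets (Nfkb2, lower) and 0 to 1 with each library left out (1 without wild-type library 1, Birc3, lower). The count of further pathway genes called, 6, was 3 with a mean of at least 50, 19 with a term for the library sets and 1 to 14 with each library left out. The count over all tested genes, 729, was 380 with a mean of at least 50, where fewer genes were tested, 2791 with the library set term and 200 to 2228 with each library left out. The causes were not tested. P-values with the library set term tend to be too small, since the sets were clustered from these same values. Without wild-type library 1 the wild type is set 2 only, so the set difference enters the change between the labels. Under the refitted alternatives directions turned for 3 of the 34 named genes, none of which passed. Rela was at -0.004 with the set term. Tnfaip3 was at 0.60 with the set term and between -2.08 and 0.15 with each library left out, above 0 without wild-type library 2 or 3. Hmgb1, at 0.03, was at -0.004 in DESeq2, -0.073 with the set term and between -0.09 and 0.22 with each library left out. Within set 1, with 1 wild-type library and no test, Nfkb1 (0.44), Birc3 (0.24), Nfkbia (0.07), Tnfaip3 (1.31) and Rela (-0.08) also had the other sign. Over the 34 genes, 486 values kept direction and side of the threshold, 18 lost a call and 19 gained one. The replicate numbers did not pair the libraries (correlations of deviations 0.446, 0.70 and -0.624), and not every library correlated best with its own number. With the replicate block, 476 of all genes, 5 pathway genes and 0 members were called. Tnfaip3, Nfkbie and Birc3 rest on 24 to 58 reads in a group. For Tnfaip3 and Birc3 the read ratio of set 2 to set 1 had a 95% exact interval of 5.62 to 85.4 and 1.38 to 3.87. Those intervals hold counting error only. The sets were drawn from these data, so the intervals do not test the split.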
